A study of Homo sapiens with 6 samples.

Results

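The histone cluster genes are the replication-dependent genes for the linker histone H1 and the core histones H2A, H2B, H3 and H4. A total of 49 of the 17039 genes with FPKM values had a symbol starting with HIST1H, HIST2H, HIST3H or HIST4H. With earlier results of these data known, all 49 were taken as members by symbol, whatever their levels. They comprised 3 H1, 13 H2A, 13 H2B, 10 H3 and 10 H4 genes, of which 34 belonged to the HIST1 cluster on chromosome 6, 12 to HIST2 on chromosome 1 and 3 to HIST3 or HIST4. Current RefSeq annotation lists 71 protein-coding genes with such older symbols, so genes such as HIST1H2AA and HIST1H2BA were not analysed here.

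Poly(A)-selected RNA was sequenced from 6 libraries. MDA-MB-231, a human breast cancer cell line, gave 3 of them, and a brain-seeking variant of that line, described in the labels as brain metastasis cells, gave the libraries 231BR_1, 231BR_2 and 231BR_3. Both lines grew in DMEM with serum and antibiotics. G418 was present in the medium of the brain-seeking line alone, so the line and the drug cannot be told apart. Values of a line are given in the order of its libraries 1, 2 and 3. The cell line field counts upward from one library to the next within each line, whereas the sample names give only these 2 lines, and the sample names were used. Each group is 1 cell line, and the samples are called independent without stating separate cultures, so p-values measure only the spread between these libraries. The 4 line markers were abundant in both lines, with VIM averaging 2553 FPKM in the brain-seeking line and 2306 FPKM in MDA-MB-231, CD44 181 and 251 FPKM, KRT8 176 and 237 FPKM and KRT18 273 and 352 FPKM. VIM was called higher in the brain-seeking line and the other 3 lower. The markers of other cell types were all under 1 FPKM, with GFAP (astrocyte) at 0.043 and 0.0067 FPKM, PTPRC (leukocyte) at 0.023 and 0 FPKM, PECAM1 (endothelium) at 0.42 and 0.183 FPKM, called higher, and COL1A1 (fibroblast) at 0.517 and 0.93 FPKM, called lower.

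Core histones form the protein spool around which DNA is wrapped, and H1 binds the DNA between the spools. Most histone cluster genes have no introns, are transcribed mainly in S phase when new DNA needs packaging, and give mRNAs that end in a conserved stem-loop, bound by SLBP, in place of a poly(A) tail. Some of them also give polyadenylated transcripts that run past the stem-loop, and poly(A) selection retains mainly these, so the values below concern polyadenylated forms rather than total histone mRNA. In bulk RNA, fewer cells expressing a gene and less RNA per cell cannot be told apart.

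The stem-loop sequences are shown because they mark the usual end of a histone mRNA, the feature that sets these genes apart from most others. A stem-loop of 16 bases, with 2 arms of 6 bases and a loop of 4 bases, was found in the GENCODE 29 transcripts of 25 of the 49 members, against 67 of all 58721 GENCODE genes (0.114%). The capitals mark the 2 arms and the lower-case letters the loop, 5′ to 3′.
stem-loop of 14 H2A, H2B and H3 genes including HIST1H2AC, HIST2H2AA3 and HIST2H2BE: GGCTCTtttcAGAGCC
stem-loop of HIST1H2BC, HIST1H2BD and HIST3H3: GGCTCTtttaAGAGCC
stem-loop of HIST1H2AG: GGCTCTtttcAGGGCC
stem-loop of the H4 genes HIST1H4B, HIST1H4H, HIST1H4J and HIST4H4: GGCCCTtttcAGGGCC
stem-loop of the H4 genes HIST1H4I, HIST2H4A and HIST2H4B: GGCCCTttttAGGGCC
The H4 genes thus shared arms that differed from those of the H2A, H2B and H3 genes, while HIST1H2AG combined an arm of each kind. The annotated transcripts ran more than 100 bases past the stem-loop in 17 members, for example by 1128 bases in HIST1H2AC, 1729 bases in HIST2H2BE and 1655 bases in HIST1H4H. In 14 members the polyadenylation signal AATAAA occurred after the stem-loop. For 20 members the annotated models ended at the stop codon, HIST1H2BK among them, so the absence of a stem-loop there says only that the model does not reach it.

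Between the 2 lines, the histone cluster genes were mostly lower in the brain-seeking line. The group mean was lower in the brain-seeking line for 43 of the 49 members, higher for 4 and equal for 2, and across all genes tested it was lower for 44.1%. The levels of the 3 libraries of each line did not overlap for 27 members, all lower in the brain-seeking line, whereas 33.5% of all genes tested separated in that direction and 44.9% in the other. Of the 44 members with a mean of at least 0.1 FPKM, 33 (75.0%) were lower at an adjusted p under 0.05 by limma with Benjamini-Hochberg adjustment, against a background of 32.9% of 13465 genes. That mean takes in both lines, so some members passed it through 1 line only. HIST1H4J and HIST1H4I, both called lower, passed through MDA-MB-231, and HIST1H2BE, not called, through the brain-seeking line. A single member, HIST1H4K, was called higher, against a background of 44.4%. The remaining 10 tested members were not called. A total of 21 members were lower by more than 2-fold and 1 was higher, against backgrounds of 4.34% and 10.9%, and 6 met all criteria for a differentially expressed gene (adjusted p under 0.05, over 2-fold and at least 1 FPKM in both lines), against backgrounds of 1.77% lower and 4.68% higher. These 6 were HIST1H1C, HIST1H2AC, HIST2H2AA3, HIST2H2AA4, HIST1H2BK and HIST1H4H. HIST1H4H (log2 fold change -1.04) fell short of 2-fold without 231BR_3 (-0.98), without MDA-MB-231 library 1 (-0.99) and with the pseudocount raised to 1 (-0.68). The 44 members had a median log2 fold change of -0.95, and that of all genes tested was 0.08. Apart from HIST1H4J, which was listed at 0 in the brain-seeking line, the values ranged from -2.76 to 2.13. A total of 3 pairs of members had identical values in every library. Counting each pair once, a count added after seeing the data, left 30 of 41 tested members lower, 20 past 2-fold and 5 past all criteria.

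Many members were near the floor of the measurement. The mean over the 6 libraries was under 0.5 FPKM for 22 of the 49, and their lowest values above 0 lay between 0.06 and 0.24 FPKM. Depth is unknown because no read counts were used here. Of those 22 members, 17 were tested and 8 were called lower. All 21 members with a mean of at least 1 FPKM over the 6 libraries were called lower. At that level 35.4% of all genes were called lower. Separately, 20 of the 21 members had every brain-seeking library below every MDA-MB-231 library. Of all genes tested, whatever their level, 33.5% separated in that direction, and the share at this level is not given here. The mean over the 6 libraries takes in both lines, and some of the 21 reached 1 FPKM only through MDA-MB-231, where they were higher. In the brain-seeking line alone 12 members averaged at least 1 FPKM, so the 21 are no separate support for a decrease. The same limit holds for the ranges that follow. Between 0.1 and 1 FPKM, 12 of 23 members were lower against 21.3% of genes, between 1 and 10 FPKM 15 of 15 against 26.5%, and from 10 FPKM upward 6 of 6 against 42.1%. The median log2 fold change of the members in these 3 ranges was -0.81, -0.96 and -2.31.

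**Figure D1:**
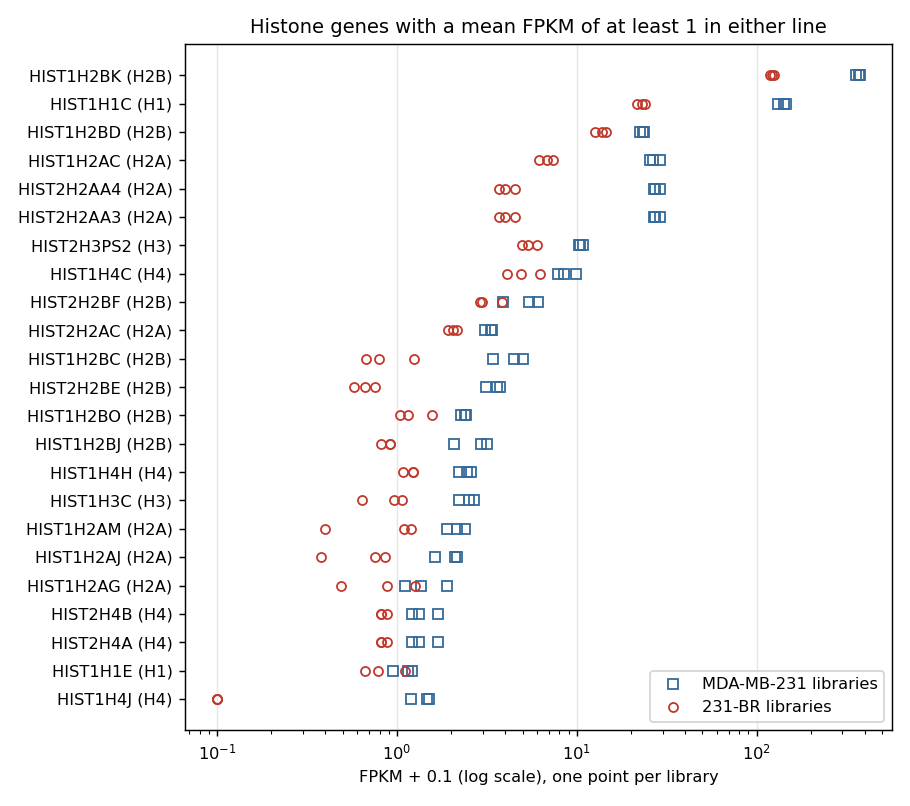
Level of the 23 histone cluster genes with a mean of at least 1 FPKM in either line, in each of the 6 libraries. The axis is FPKM + 0.1 on a log scale, with open squares for MDA-MB-231 and open circles for the brain-seeking line. HIST1H2BK and HIST1H1C stood above the other members, and the circles lay to the left of the squares without overlap for 21 of the 23 genes. All 23 reached 1 FPKM in MDA-MB-231 but only 12 did in the brain-seeking line, so this choice of genes favours such a separation. Over all genes tested, 33.5% separated in that direction.

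The H1 genes are described first, because the ratio of their sums between the lines was the largest of the 5 types, although the H2B sums differed more in FPKM. HIST1H1C (H1-2 in current nomenclature, chromosome 6, 26055787 to 26056428 on GRCh38, minus strand, 1 exon) encodes the linker histone H1.2. Its level was 23.72, 23.06 and 21.53 FPKM in 231BR_1, 231BR_2 and 231BR_3 and 131.98, 142.25 and 146.12 FPKM in MDA-MB-231 libraries 1, 2 and 3. Every brain-seeking library was far below every MDA-MB-231 library. The means were 22.8 ± 1.12 and 140.1 ± 7.31 FPKM (SD, n = 3 libraries), 6.15-fold higher in MDA-MB-231, with a log2 fold change of -2.62 ± 0.045 (SE) and an adjusted p of 3.21e-11 by limma. HIST1H1E, which encodes H1.4, was measured at 0.56, 1.01 and 0.68 FPKM in the brain-seeking line and 1.11, 0.85 and 1.05 FPKM in MDA-MB-231. Its libraries overlapped, and the log2 fold change of -0.40 had an adjusted p of 0.072 by limma. It was called lower without 231BR_2 (adjusted p 0.0061), without MDA-MB-231 library 2 (0.050), under median-of-ratios scaling (0.039) and under quantile scaling (0.0021), while the adjusted p rose to 0.26 without 231BR_1 and to 0.19 without MDA-MB-231 library 1. The testis gene HIST1H1T was listed at 0 in all libraries except 0.06 FPKM in MDA-MB-231 library 1 and was not tested. HIST1H1C therefore made up 96.8% of the summed H1 level in the brain-seeking line and 99.3% in MDA-MB-231.

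Among the H2A genes, which encode the core histone that pairs with H2B, 10 of 12 tested members were lower and 0 higher. The shares of all genes were 32.9% and 44.4%. The median log2 fold change of the H2A genes was -1.39. HIST2H2AA3 and HIST2H2AA4, a duplicated pair at chromosome 1, 149842188 to 149842736 and 149851061 to 149851624 on GRCh38, were listed with identical values in every library, so they are not independent measurements, although both are included in the counts and sums by type. Each was at 3.91, 4.46 and 3.60 FPKM in the brain-seeking line and 26.63, 27.13 and 28.95 FPKM in MDA-MB-231. The lines were widely separated, with means of 3.99 ± 0.436 and 27.6 ± 1.22 FPKM (SD, n = 3 libraries), a 6.91-fold difference and a log2 fold change of -2.76 ± 0.071 (SE; adjusted p 3.66e-10 by limma). Their annotated transcripts ended 35 bases after the stem-loop printed above. HIST1H2AC was at 7.27, 6.72 and 6.05 FPKM in the brain-seeking line and 25.32, 26.36 and 28.90 FPKM in MDA-MB-231. It was thus 4.02-fold higher in MDA-MB-231 with no overlap, and the log2 fold change was -1.99 ± 0.069 (SE; adjusted p 3.17e-09 by limma).

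The other H2A genes were lower in level. HIST2H2AC was at 1.83, 1.96 and 2.06 FPKM in the brain-seeking line and 2.98, 3.25 and 3.27 FPKM in MDA-MB-231, a log2 fold change of -0.67 without overlap. HIST1H2AM was at 1.00, 1.09 and 0.30 FPKM against 2.28, 1.80 and 2.05 FPKM, and HIST1H2AJ at 0.76, 0.65 and 0.28 FPKM against 1.52, 1.99 and 2.06 FPKM. Both were lower without overlap, with log2 fold changes of -1.40 and -1.63, and in both the lowest brain-seeking library was number 3. HIST1H2AG was at 0.78, 0.39 and 1.16 FPKM in the brain-seeking line and 1.01, 1.26 and 1.80 FPKM in MDA-MB-231, so the highest brain-seeking library exceeded the lowest MDA-MB-231 library. Its log2 fold change of -0.80 (adjusted p 0.037 by limma) lost the call without 231BR_1 (adjusted p 0.067), 231BR_2 (0.13), MDA-MB-231 library 2 (0.067) or MDA-MB-231 library 3 (0.14). The uncalled HIST2H2AB and HIST1H2AH had log2 fold changes of 0.21 and 0.07 at levels up to 0.42 FPKM.

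Among the H2B genes, 9 of 12 tested were lower (32.9% of all genes) and 0 higher (44.4%), with a median log2 fold change of -1.10. HIST1H2BK (H2BC12 in current nomenclature, chromosome 6, 27146418 to 27146798 on GRCh38, minus strand) had the highest level of the 49 genes. It was at 119.46, 124.43 and 122.52 FPKM in the brain-seeking line and 377.53, 372.93 and 359.21 FPKM in MDA-MB-231. The libraries of each line were close together and the lines far apart, with means of 122 ± 2.51 and 370 ± 9.53 FPKM (SD, n = 3 libraries), a 3.03-fold difference and a log2 fold change of -1.60 ± 0.026 (SE; adjusted p 2.38e-11 by limma). HIST1H2BK alone supplied 60.2% of the summed level of all 49 genes in the brain-seeking line and 54.6% in MDA-MB-231. HIST1H2BD, the next H2B gene by level, was at 12.58, 13.67 and 14.43 FPKM in the brain-seeking line and 23.36, 23.51 and 22.36 FPKM in MDA-MB-231. It was lower in every brain-seeking library, but only by 1.70-fold (log2 fold change -0.76 ± 0.050 SE, adjusted p 2.62e-07 by limma).

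Larger ratios were found among H2B genes of low level. HIST2H2BE was at 0.56, 0.65 and 0.48 FPKM in the brain-seeking line and 3.50, 3.66 and 3.02 FPKM in MDA-MB-231, a 6.02-fold difference with a log2 fold change of -2.40 ± 0.119 (SE; adjusted p 3.60e-08 by limma). HIST1H2BC was at 0.69, 0.57 and 1.14 FPKM against 3.33, 4.35 and 4.92 FPKM, 5.25-fold higher in MDA-MB-231 (log2 fold change -2.29, adjusted p 4.11e-06 by limma). HIST1H2BJ was at 0.71, 0.81 and 0.81 FPKM against 2.84, 3.05 and 1.98 FPKM, a log2 fold change of -1.61. None of these 3 genes overlapped between the lines. HIST1H2BO was lower with a log2 fold change of -0.94 (1.47, 0.94 and 1.05 FPKM against 2.30, 2.32 and 2.16 FPKM). HIST2H2BF was at 2.81, 3.75 and 2.88 FPKM against 6.02, 5.29 and 3.77 FPKM, and here the highest brain-seeking library nearly reached the lowest MDA-MB-231 library (log2 fold change -0.64, adjusted p 0.0043 by limma). The largest positive value of an H2B gene was that of HIST1H2BE, at 0.69, 0 and 0.35 FPKM in the brain-seeking line and 0, 0.23 and 0 FPKM in MDA-MB-231, with overlapping libraries and no call (log2 fold change 1.14, adjusted p 0.16 by limma). Without 231BR_2 it was called higher, with a log2 fold change of 2.002 and an adjusted p of 0.0079.

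The H3 genes encode the core histone whose tail carries many of the best-known chromatin marks. Of 8 tested, 7 were lower (32.9% of all genes) and 0 higher (44.4%). The median log2 fold change was -1.01, with a range from -1.58 to -0.54. HIST2H3PS2, also named H3-7 and placed at chromosome 1, 143905556 to 143905966 on GRCh38, apart from the rest of HIST2, had the highest level. Its coding sequence differed from that of HIST2H3D at 5 of 411 bases, so reads from 1 gene can be counted for the other. HIST2H3PS2 was at 5.88, 4.85 and 5.23 FPKM in the brain-seeking line and 10.68, 10.33 and 10.24 FPKM in MDA-MB-231. The lines did not overlap, with means of 5.32 ± 0.521 and 10.4 ± 0.232 FPKM (SD, n = 3 libraries) and a log2 fold change of -0.96 ± 0.067 (SE; adjusted p 4.35e-07 by limma), just short of 2-fold. HIST1H3C was at 0.86, 0.96 and 0.54 FPKM against 2.12, 2.59 and 2.42 FPKM, 3.02-fold higher in MDA-MB-231. HIST1H3H showed the largest decrease of the type at a log2 fold change of -1.58, from levels of 0.10, 0.31 and 0.41 FPKM against 0.65, 1.14 and 1.11 FPKM. Both separated fully between the lines. The pair HIST2H3A and HIST2H3C, again identical in every library, was at 0.19, 0.28 and 0.56 FPKM against 0.44, 0.81 and 0.70 FPKM and overlapped. Its log2 fold change of -0.81 (adjusted p 0.029 by limma) lost the call without 231BR_1 (adjusted p 0.12), 231BR_2 (0.086), MDA-MB-231 library 2 (0.10) or MDA-MB-231 library 3 (0.084). The testis gene HIST3H3 was listed at 0 in all libraries except 0.10 FPKM in MDA-MB-231 library 3.

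The H4 genes, whose proteins pair with H3, had the smallest median, -0.77. Of 10 tested, 6 were lower (32.9% of all genes), 1 was higher (44.4%) and 3 were not called. HIST1H4C was at 4.80, 6.11 and 3.99 FPKM in the brain-seeking line and 7.76, 8.40 and 9.76 FPKM in MDA-MB-231, without overlap and with a log2 fold change of -0.80 ± 0.136 (SE; adjusted p 3.47e-04 by limma). HIST1H4H was at 1.13, 1.12 and 0.98 FPKM against 2.49, 2.12 and 2.34 FPKM, 2.15-fold higher in MDA-MB-231. The identical pair HIST2H4A and HIST2H4B was at 0.72, 0.72 and 0.78 FPKM against 1.22, 1.11 and 1.59 FPKM, a log2 fold change of -0.73. All of these were lower in each brain-seeking library than in any MDA-MB-231 library. HIST4H4, on chromosome 12 and reported to be polyadenylated, was at 0, 0 and 0.12 FPKM against 0, 0.25 and 0.24 FPKM and was not called (log2 fold change -0.81, adjusted p 0.16 by limma). Without MDA-MB-231 library 1 it was called lower, with a log2 fold change of -1.41 and an adjusted p of 0.0069.

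HIST1H4J and HIST1H4K moved in opposite directions, and they must be read together. HIST1H4J was listed at 0 in all 3 libraries of the brain-seeking line and at 1.10, 1.36 and 1.40 FPKM in MDA-MB-231 (adjusted p 1.05e-08 by limma; no fold is given against values of 0). HIST1H4K was at 0.61, 1.36 and 0.76 FPKM in the brain-seeking line and 0, 0 and 0.96 FPKM in MDA-MB-231, with overlapping libraries (log2 fold change 2.13 ± 0.77 SE, adjusted p 0.028 by limma). The 2 coding sequences of 312 bases in GENCODE 29 differed at 0 positions, so reads from 1 gene can be counted for the other and each value is uncertain. Summed over both genes, a sum chosen after their values were seen, the levels were 0.61, 1.36 and 0.76 FPKM in the brain-seeking line and 1.10, 1.36 and 2.36 FPKM in MDA-MB-231, and the lines overlapped. The call of HIST1H4K was lost without 231BR_2 (adjusted p 0.10), 231BR_3 (0.057), MDA-MB-231 library 1 (0.11) or MDA-MB-231 library 2 (0.11), and also with no filter (0.079), quantile scaling (0.063) or no variance trend (0.096). The pairs HIST2H2AA3 and HIST2H2AA4, HIST2H3A and HIST2H3C, and HIST2H4A and HIST2H4B also had coding sequences without a difference. How reads were divided among similar genes was not tested. Coding sequences of equal length were 79.1 to 100% identical among H2A genes, 84.8 to 94.2% among H2B genes, 81.0 to 100% among H3 genes and 79.5 to 100% among H4 genes. In addition, 13 members overlapped another annotated gene, and the strandedness of the libraries is not stated in the sources used here.

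**Figure D2:**
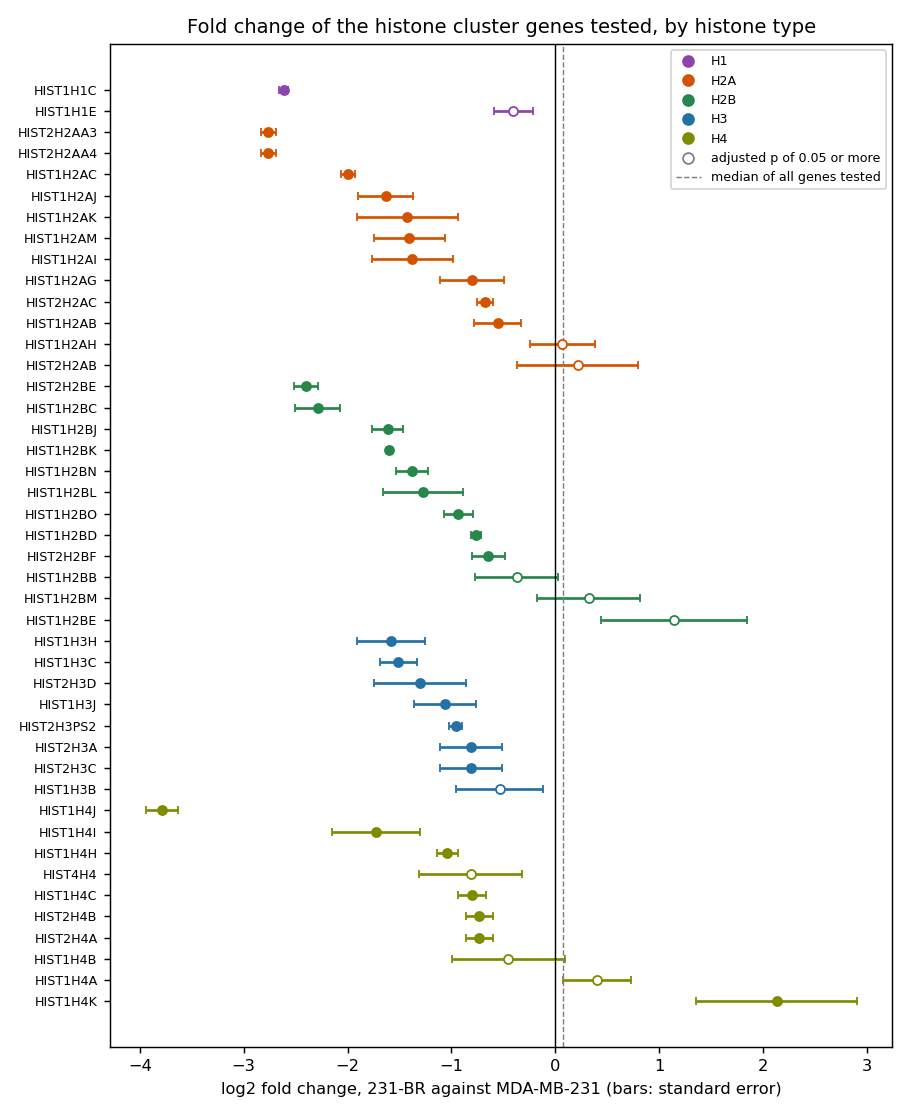
Log2 fold change (the brain-seeking line over MDA-MB-231, on log2(FPKM + 0.1)) of the 44 tested members by histone type, with bars for the SE, filled points for an adjusted p under 0.05 and a dashed line at the median of all genes. A total of 33 filled points lay below 0 and 1 above (HIST1H4K); the lowest point, HIST1H4J, was listed at 0 in the brain-seeking line, so its place depends on the pseudocount.

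Sums over each type showed how unevenly the difference was spread. The summed level of all 49 genes was 199.95, 207.95 and 200.4 FPKM in the brain-seeking line and 672.7, 681.68 and 679.53 FPKM in MDA-MB-231. It was 3.34-fold higher in MDA-MB-231, with means of 203 ± 4.49 and 678 ± 4.69 FPKM (SD, n = 3 libraries). With 3 libraries against 3, an exact two-sided permutation test cannot go below p = 0.1, so these sums are given without a test. The H1 sum averaged 23.5 ± 1.14 FPKM in the brain-seeking line and 141 ± 7.21 FPKM in MDA-MB-231, a 6.0-fold difference. The H2A sum averaged 19.6 ± 1.54 and 92.3 ± 4.69 FPKM, a 4.71-fold difference, or 4.15-fold with HIST2H2AA3 and HIST2H2AA4 counted once. The H2B sum averaged 143 ± 3.39 and 412 ± 11.4 FPKM, a 2.88-fold difference. The order continued with H3 at 7.7 ± 0.481 and 16.5 ± 0.481 FPKM (2.14-fold) and H4 at 8.86 ± 1.15 and 16.1 ± 2.58 FPKM (1.81-fold). Within each type, every brain-seeking sum was below every MDA-MB-231 sum.

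Single genes set several of these sums. Without HIST1H1C the log2 ratio of the H1 sum moved from -2.59 to -0.45, and without HIST1H2BK that of the H2B sum moved from -1.53 to -1.01, whereas the H3 sum moved from -1.10 to -1.35 without HIST2H3PS2. The composition differed as well. H1 made up 11.1 to 12.1% of the summed level in brain-seeking libraries and 19.8 to 21.7% in MDA-MB-231 libraries, H2A 8.89 to 10.1% and 13.2 to 14.4%. In the other direction, H2B made up 69.7 to 72.0% in the brain-seeking line and 58.7 to 62.5% in MDA-MB-231, H3 3.46 to 4.07% and 2.37 to 2.47%, and H4 3.99 to 4.89% and 2.12 to 2.8%. No range of shares overlapped between the lines.

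**Figure D3:**
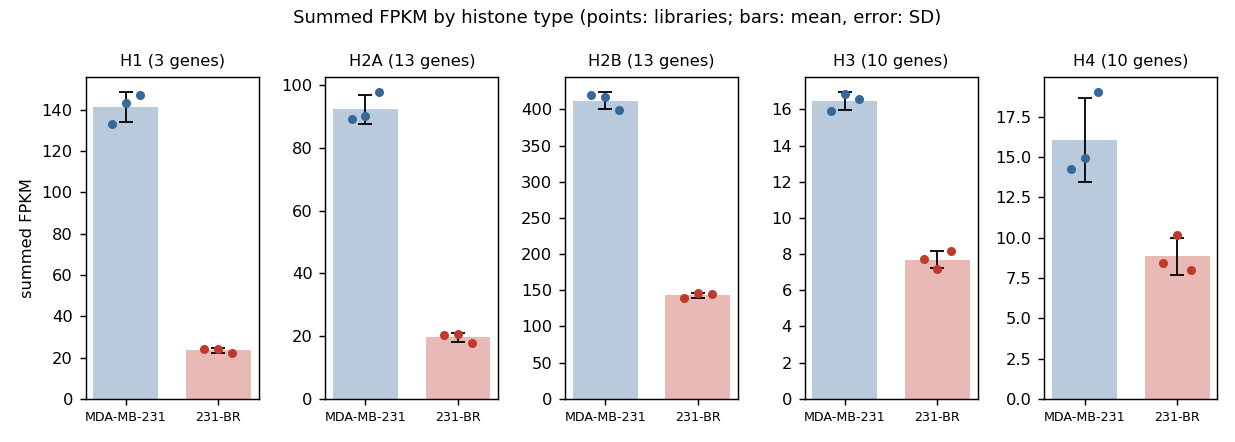
Summed FPKM of each histone type, with a bar for the mean, an error bar for the SD and a point for each of the 3 libraries of a line, on an axis from 0. The H2B sums were the highest (means of 143 and 412 FPKM), and the H1 sums differed the most in ratio (means of 23.5 and 141 FPKM).

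Promoters are shown for the 2 members with the highest levels, since their motif content differed. RefSeq promoters (GRCh38.p14, 250 bases before to 50 after the start) were matched for 45 of the 49 members. Capitals mark CCAAT, the octamer ATTTGCAT and TATAAA on either strand, and the sequences are written 5′ to 3′ on the minus strand, from which both genes are read.
HIST1H2BK promoter, chr6:27146809-27147108: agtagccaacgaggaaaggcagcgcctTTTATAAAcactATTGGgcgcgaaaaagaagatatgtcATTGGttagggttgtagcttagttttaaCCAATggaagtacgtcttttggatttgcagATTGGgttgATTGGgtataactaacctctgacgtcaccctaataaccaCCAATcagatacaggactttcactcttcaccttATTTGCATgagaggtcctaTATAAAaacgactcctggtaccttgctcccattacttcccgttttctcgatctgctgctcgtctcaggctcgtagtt
HIST1H1C promoter, chr6:26056421-26056720: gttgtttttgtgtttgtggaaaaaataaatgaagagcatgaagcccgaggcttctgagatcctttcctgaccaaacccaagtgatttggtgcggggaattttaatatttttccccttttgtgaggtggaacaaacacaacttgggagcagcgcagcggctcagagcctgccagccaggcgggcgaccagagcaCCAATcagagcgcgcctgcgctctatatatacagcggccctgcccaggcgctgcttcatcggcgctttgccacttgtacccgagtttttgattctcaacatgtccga
The HIST1H2BK promoter held CCAAT 6 times, the octamer 1 time and TATAAA 3 times (TTTATAAA holds it on both strands, overlapping). The HIST1H1C promoter held CCAAT 1 time and no exact match to either of the others. Only exact matches were counted, so variant forms of these elements, which the HIST1H1C promoter may hold, were missed. A CCAAT match was present in 38 of 45 members (84.4%) and in 39.7% of all 27305 genes with a promoter. It was found in all H1, H2A, H2B and H3 promoters that were matched but in 1 of 8 H4 promoters. TATAAA was present in 34 of 45 members (75.6%) and in 14.0% of all genes. The octamer, a known element of H2B promoters bound by POU2F1, was present in 17 of 45 members (37.8%) and in 2.19% of all genes, and these 17 were 7 of 12 H2A and 10 of 13 H2B genes. Of the genes with the octamer, 12 of 16 tested were called lower with a median log2 fold change of -0.87, and of those without it 19 of 24 tested with a median of -1.15. Genes whose transcripts included the stem-loop were lower in 19 of 22 tested cases, and those without it in 14 of 22, with medians of -1.15 and -0.87. This split follows the annotation, because the models of 20 members end at the stop codon and cannot show a stem-loop. Over all genes tested, 32.9% were called lower.

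Many H2A and H2B genes lie head to head and share a short stretch between their starts. Among the 45 members with a matched RefSeq promoter, 7 pairs had starts 194 to 248 bases apart on opposite strands. Both genes were called lower in 6 of these pairs. Taken singly, 75.0% of the tested members and 32.9% of all genes tested were called lower. Whether the genes of a pair changed together more than other members was not tested. The other members were not searched, HIST1H2AH among them. In GENCODE it starts at 27147129 on the plus strand, next to HIST1H2BK, which reaches 27146798 on the minus strand. HIST1H2BK was called lower (log2 fold change -1.60) and HIST1H2AH was not called (0.07). The sizes within a pair could differ. HIST2H2BE and HIST2H2AC, 236 bases apart, had log2 fold changes of -2.40 and -0.67, and HIST1H2BJ and HIST1H2AG, 248 bases apart, had -1.61 and -0.80. By contrast HIST1H2BC and HIST1H2AC, 246 bases apart, had -2.29 and -1.99, even though their levels in MDA-MB-231 were 4.20 and 26.9 FPKM. In the pair HIST1H2AJ and HIST1H2BM, 245 bases apart, only HIST1H2AJ was called.

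By position, 22 of 31 tested genes of the HIST1 cluster on chromosome 6 were lower and 1 was higher (median log2 fold change -1.06), and 11 of 12 tested genes of HIST2 on chromosome 1 were lower (median -0.81). The other genes within these stretches were called in both directions. Among 12 tested non-histone genes between the first and the last HIST1 gene, 4 were lower and 5 higher, with a median of 0.02, near the shares of all genes (32.9% and 44.4%). HFE, a regulator of iron uptake, was lower (1.26 against 2.72 FPKM, log2 fold change -1.05), as was BTN2A1 (-0.34), whereas the butyrophilin genes BTN3A3 (3.39 against 0.74 FPKM, 2.06) and BTN3A2 (5.50 against 2.60 FPKM, 1.05) were higher. Among 43 tested non-histone genes within the HIST2 stretch, 15 were lower and 12 higher, against the same shares of all genes, with a median of -0.05. That stretch is wide, because HIST2H3PS2 lies apart from the rest, and its largest differences were LOC101929805 (-1.09), PDE4DIP (-0.98), FMO5 (0.97) and ANKRD34A (1.21).

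**Figure D4:**
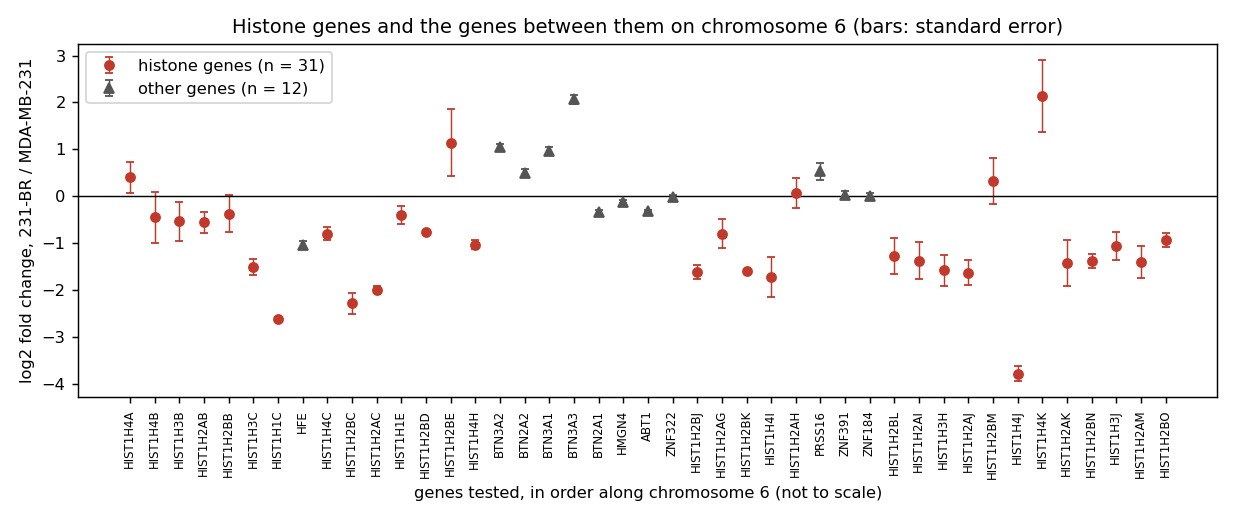
Log2 fold change (the brain-seeking line over MDA-MB-231, bars SE) of the 31 tested histone genes and 12 tested other genes of the chromosome 6 cluster, in their RefSeq order along the chromosome. Histone genes lay mostly below 0 along the whole stretch (median -1.06), and the other genes lay on both sides of 0 (median 0.02).

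Histone genes listed as replication-independent, most of which are transcribed throughout the cell cycle and give polyadenylated mRNAs, were compared as the nearest relatives. Of 12 tested, 4 were lower and 5 higher, with a median log2 fold change of 0.06 and 0 lower by more than 2-fold, against backgrounds of 32.9% lower and 44.4% higher. These shares are near the background. H2AFZ, which encodes H2A.Z, was at 461.27, 499.17 and 469.59 FPKM in the brain-seeking line and 429.33, 425.20 and 433.79 FPKM in MDA-MB-231. H3F3A, a gene for H3.3, was at 337.27, 339.17 and 344.39 FPKM in the brain-seeking line and 262.19, 250.20 and 251.18 FPKM in MDA-MB-231. Both were higher in every brain-seeking library, with log2 fold changes of 0.15 and 0.42, but under median-of-ratios scaling H2AFZ was no longer called (log2 fold change 0.067, adjusted p 0.064 by limma). H3F3B, the other H3.3 gene, had a value of 0.07, which turned to -0.011 under median-of-ratios scaling, so no direction is given. H2AFX, the source of the DNA-damage mark gamma-H2AX, was lower (134 against 167 FPKM, log2 fold change -0.32), and H2AFV was lower at -0.46. The linker histone gene H1F0 averaged 185 and 145 FPKM, a log2 fold change of 0.34 opposite in sign to that of HIST1H1C, and H2BFM was higher at 0.57 against 0.163 FPKM (log2 fold change 1.35). H1F0 was named after its value was seen.

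Genes that act on histone transcription and mRNA 3′ ends were tested as a list of 17. Of these, 4 were lower and 7 higher, with a median of 0.06. Over all genes tested 32.9% were lower and 44.4% higher, near these shares. SLBP, the stem-loop binding protein, was at 56.26, 53.97 and 55.08 FPKM in the brain-seeking line and 72.06, 71.67 and 71.70 FPKM in MDA-MB-231. It was lower in every brain-seeking library (log2 fold change -0.38 ± 0.025 SE, adjusted p 2.47e-07 by limma), as was ZNF473, a component of the U7 processing complex (-0.35). NPAT, the coactivator of histone gene transcription, was at 17.88, 17.48 and 16.65 FPKM against 14.64, 13.45 and 13.17 FPKM and was higher (0.33), together with LSM10 of the U7 particle (0.46) and the cleavage factor CSTF2 (0.51). Of 23 histone chaperones, 9 were lower and 8 higher, again near the background, with a median of 0.02. HIRA and UBN2, which deposit H3.3, were lower (-0.51 and -0.45). ATRX, which acts with DAXX on H3.3, and ASF1B, which hands over new H3 and H4, were higher (1.14 and 0.93). DAXX itself, whose value was added after it was seen, was lower (-0.39).

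S-phase genes were included because histone cluster genes are transcribed with DNA replication. Of 28 tested, 20 were lower and 4 higher, against backgrounds of 32.9% lower and 44.4% higher. The median log2 fold change was -0.28, and 1 was lower by more than 2-fold, against a background of 4.34%. TYMS, thymidylate synthase, was at 124.23, 127.88 and 126.48 FPKM in the brain-seeking line and 255.71, 255.54 and 247.67 FPKM in MDA-MB-231 (log2 fold change -1.003), and the helicase subunit gene MCM3 was lower by -0.79. PCNA, the replication clamp, averaged 152 against 181 FPKM (-0.25) and the proliferation marker MKI67 93.5 against 119 FPKM (-0.35). In the other direction, MCM2 (0.26) and the licensing factor CDC6 (0.17) were higher. The part of these levels, and of SLBP, in the histone gene differences was not tested. The 6 members reported elsewhere to give polyadenylated transcripts (HIST1H1C, HIST1H2AC, HIST1H2BD, HIST1H2BK, HIST2H2BE and HIST4H4) had a median log2 fold change of -1.80, and 5 of them were called lower.

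**Figure D5:**
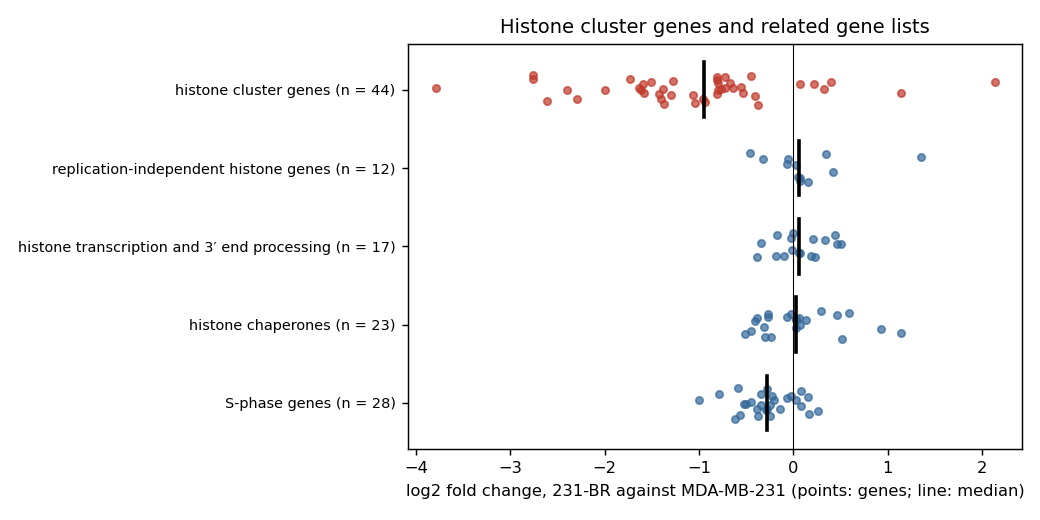
Log2 fold change (the brain-seeking line over MDA-MB-231) of each tested gene of the histone cluster and of the related lists, 1 point per gene with a line at the list median. The histone cluster genes had a median of -0.95, the S-phase genes -0.28, and the replication-independent histone genes, the processing genes and the chaperones 0.06, 0.06 and 0.02.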

How the data were processed

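Poly(A)-selected RNA of 3 libraries per line was sequenced, and the deposited values are FPKM per gene, that is, fragments scaled by transcript length and by library size. The submitters' processing notes name HISAT2 2.0.4, Bowtie2 2.2.5 and the build GRCh38.p12; the program that computed FPKM is not given in the sources used here, nor is the handling of reads matching several genes. The authors' FPKM summed to between 465020 and 496420 per library. No read counts were used, so depth is unknown and no counting interval is given.

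Values were analysed as log2(FPKM + 0.1), and fold changes on this scale understate those of low genes. The 13465 of 17039 genes averaging 0.1 FPKM or more across all 6 libraries were fitted with limma 3.58.1 in R 4.3.3 (lmFit, eBayes with trend), the cell line as the only term and Benjamini-Hochberg adjustment over all genes tested. The fit was tested on simulated data. A gene was called at an adjusted p under 0.05; differentially expressed genes also needed over 2-fold and an average of 1 FPKM or more in each line. Folds printed as ratios are of mean FPKM. Alternatives were pseudocounts of 1 and 0.01, no filter, a filter at 1 FPKM, median-of-ratios and quantile scaling, no trend, a replicate block and each library left out.

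The members and gene lists were chosen with earlier results of these data known. Named were members with a mean of at least 1 FPKM in either line, the largest called change per direction in each type, identical genes, HIST2H3PS2, members reported as polyadenylated or from testis, and from each other list the 2 largest called changes per direction with some fixed regulators. All 49 members matched RefSeq (GRCh38.p14) and GENCODE 29 (GRCh38) by symbol; no gene coordinates were given with the FPKM. RNAs without a poly(A) tail, such as RN7SK, were not analysed here.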

Additional observations from a re-analysis of the deposited data

How the results depend on the processing

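Of the 33 histone cluster genes called lower, 28 remained called with no filter or without the variance trend, 32 with a pseudocount of 1 or 0.01, and all 33 under median-of-ratios and quantile scaling. A filter at 1 FPKM left 21 members tested, all 21 called lower, of which 12 were past 2-fold (21 in the reported fit). Some members passed that filter only through MDA-MB-231. A pseudocount of 1 left 9 past 2-fold. The count of members called higher was 0 with no filter, a filter at 1 FPKM, quantile scaling or no trend, and past 2-fold it was 0 with these and with 1 as pseudocount. The members' median log2 fold change was -0.46 with a pseudocount of 1, -1.28 with 0.01, -0.81 with no filter, -1.41 with the filter at 1 FPKM (fewer genes tested) and -1.26 under quantile scaling. The median of all genes was 0.08 as reported, -0.002 under median-of-ratios and -0.06 under quantile scaling. Log2 ratios of sums under median-of-ratios scaling were -1.82 (all members), -2.67 (H1) and -1.61 (H2B), and under quantile scaling -2.43 (H2A), -1.46 (H2B), -1.36 (H3) and -1.16 (H4). Alternatives added after seeing the data gave -2.05 for H2A with identical genes counted once and, without the highest gene, -1.93 for all members, -0.45 for H1, -1.01 for H2B and -1.35 for H3. Among the lists, median-of-ratios scaling gave 3 higher replication-independent and 7 lower processing genes, and quantile scaling 7 lower processing genes, 7 higher and 24 lower chromosome 1 neighbours and 7 lower chromosome 6 neighbours. H3F3B alone changed sign, to -0.011 under median-of-ratios scaling. Over all named genes and alternatives, 751 values kept direction and side of the threshold, 27 lost the call, 5 gained it and 1 changed sign; the causes were not tested.

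Same-numbered libraries did not deviate together (correlations of 0.015, -0.018 and -0.027 over 13465 genes). The values thus showed no pairing by number, which does not exclude that same-numbered libraries were prepared together. With the replicate block the same 33 members were called lower. When single libraries were left out, the count lower ranged from 28 to 32, past 2-fold from 19 to 21, all criteria from 5 to 7, higher from 0 to 1 and higher past 2-fold from 0 to 1, the 0 arising without 231BR_3 or MDA-MB-231 library 1 or 2; without 231BR_2 the 1 member called higher was HIST1H2BE in place of HIST1H4K. The count of replication-independent genes called lower ranged from 2 to 4, with 2 without 231BR_3. The members' median ranged from -1.05 to -0.83. What depth limits could not be measured, since it is unknown.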
